A study of Mus musculus with 12 samples.

Results

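The regions described here are stretches of the mouse genome where peaks from several chromatin immunoprecipitation (ChIP-seq) libraries lie on each other and no control library has a peak. Peaks of 8 ChIP lists were kept where they shared no base pair with any peak of the 4 nonspecific immunoglobulin (Ig) and input lists. The 66742 peaks that were left were merged where they overlapped or touched. Of the 66287 merged regions, 284 held peaks of at least 2 lists, which is 0.428% (0.380 to 0.481). The 12 lists of the whole series merged into 97746 regions. The regions were chosen by the positions of the deposited peaks, so the counts and scores below describe them and test nothing. Intervals are exact Clopper-Pearson 95% intervals for shares and cover counting error only.

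The cells were naive CD4 T cells from spleen and nodes of C57/Bl6j mice 7 weeks old. They were either wild-type or deficient for NLRP3 (NLRP3-/-, the knockout). All cells were plated on CD3 and CD28 coating and given IL-4 at 10 ng/ml with an antibody that blocks interferon gamma, which is the Th2 condition, for some hours. Chromatin from 300000 cells was precipitated with antibodies to STAT6, NLRP3, IRF4 or BATF, or with nonspecific Ig, or was kept as input. Each of these 12 combinations of genotype and preparation was 1 library, so no difference between them could be set against replicate error, and the labels name no mouse or pool behind a library.

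STAT6 is activated by the IL-4 receptor and enters the nucleus to start the Th2 programme. IRF4 is an interferon regulatory factor that binds DNA weakly alone and is recruited by partners. BATF, an AP-1 family factor, is one such partner, and the pair binds composite elements in activated T cells. NLRP3 is known mainly as a cytosolic sensor that assembles the inflammasome in myeloid cells, and it has been proposed to act with IRF4 on Th2 genes. The series asked where NLRP3 and these factors interact on chromatin early in Th2 differentiation.

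The lists behind the regions were of very unequal length. After the control filter the wild-type lists held 2898 STAT6, 409 NLRP3, 611 IRF4 and 623 BATF peaks. The knockout lists held 169 STAT6, 499 NLRP3, 798 IRF4 and 60735 BATF peaks. Each peak carries a score given by the authors' peak caller, which ranks peaks within a list and is not comparable between lists. No score in any list was below 50.04, and the read depth behind the peaks is unknown.

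Most of the 284 regions were meetings of only 2 lists. There were 198 regions in exactly 2 lists, 38 in 3, 30 in 4, 9 in 5, 7 in 6, none in 7 and 2 in all 8. The 284 regions held 739 peaks, and in 4 regions a list contributed more than 1 peak. Of 247 possible combinations of at least 2 lists, 77 were seen and 33 of these were seen once.

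A pair of combinations led all others, and both contained the knockout BATF list. Wild-type STAT6 with knockout BATF and nothing else made 43 regions (15.1%), and wild-type BATF with knockout BATF and nothing else made 37 (13.0%). The next combination, wild-type NLRP3 with wild-type IRF4, made 11. Wild-type IRF4 with knockout BATF made 10. Knockout IRF4 with knockout BATF, wild-type STAT6 with wild-type BATF, and wild-type STAT6 with wild-type NLRP3 made 9 each. The commonest combinations of 3 lists were wild-type NLRP3 and IRF4 with knockout STAT6 and wild-type STAT6, NLRP3 and IRF4, with 4 regions each.

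**Figure D1:**
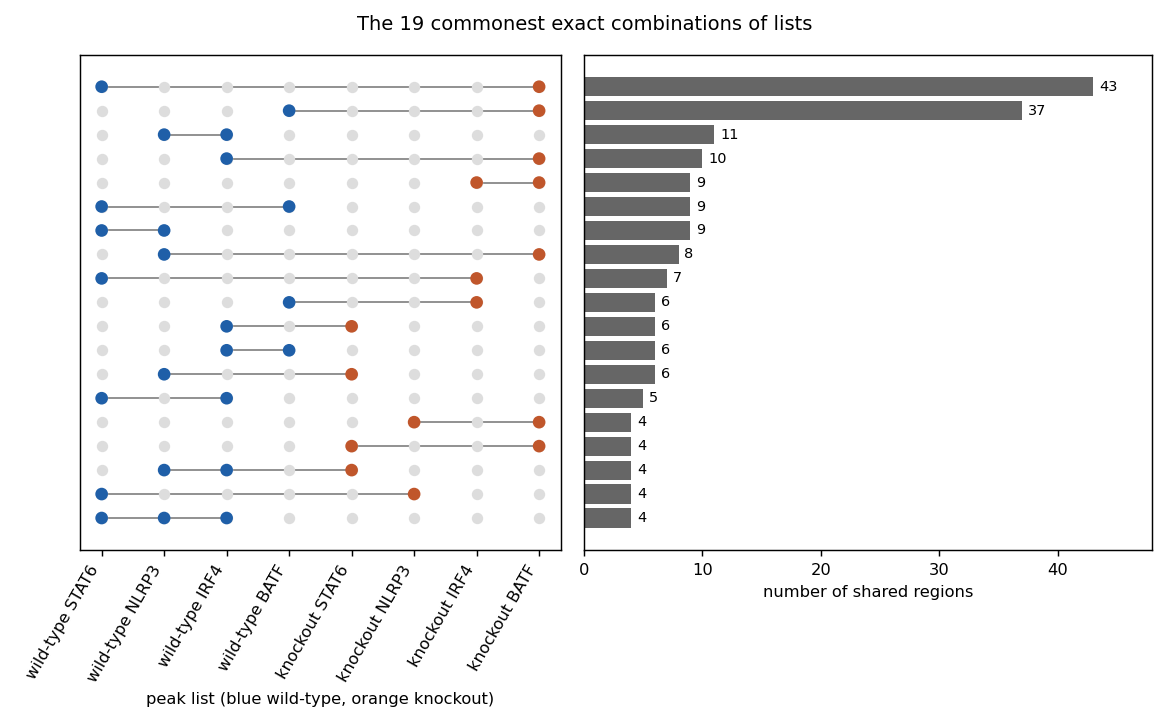
The 19 commonest exact combinations of lists, with filled circles for the lists present (blue wild-type, orange knockout) and bars for the number of shared regions. The top rows, wild-type STAT6 or wild-type BATF with knockout BATF, hold 43 and 37 regions, and no other combination exceeds 11.

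Knockout BATF was present in 151 of the 284 regions (53.2%, 47.2 to 59.1), and in 115 of these it met 1 other list only. When that list was left out, there were 169 shared regions in place of 284. The regions without unplaced or random sequence numbered 239. These lie on chromosomes 1 to 19, X and Y, called the assembled chromosomes below, which were used for all comparisons with list length.

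The number of meetings of each pair of lists was set beside the number that list lengths and peak widths alone would give if peaks lay anywhere on their chromosome. This number came from a formula, and it is a yardstick and no test. On chromosomes 1 to 19, X and Y the 28 pairs met 519 times, where the formula gave 26.4. Pairs with knockout BATF carried 96.7% of all products of list lengths but 38.0% of the meetings. They met 197 times against 25.2. The 21 pairs without knockout BATF met 322 times against 1.21, and none of these pairs had more than 0.213 from the formula. Every one of the 28 pairs met more often than the formula gave. Lists that share a region without any direct overlap of their peaks were counted as meetings, and they made 14 of the 519.

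The ratio of observed to formula counts was lowest for the commonest pair. Wild-type STAT6 and knockout BATF met in 56 regions against 11.7, a ratio of 4.77 (3.60 to 6.19, Poisson interval of the count). Knockout NLRP3 with knockout BATF met 10 times against 1.80, and knockout IRF4 with knockout BATF 23 times against 3.45. Wild-type BATF with knockout BATF met 52 times against 2.26, a ratio of 23.0 (17.2 to 30.2), which was the highest among the 7 pairs with knockout BATF. Its interval lay above that of wild-type STAT6 and overlapped that of knockout STAT6, which met knockout BATF 14 times against 0.765, a ratio of 18.3 (10.0 to 30.7). The other 21 ratios lay between 94.7 for wild-type STAT6 with knockout NLRP3 and 3478 for wild-type NLRP3 with knockout STAT6. Ratios on formula counts this far below 1 region give an order of size only.

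**Figure D2:**
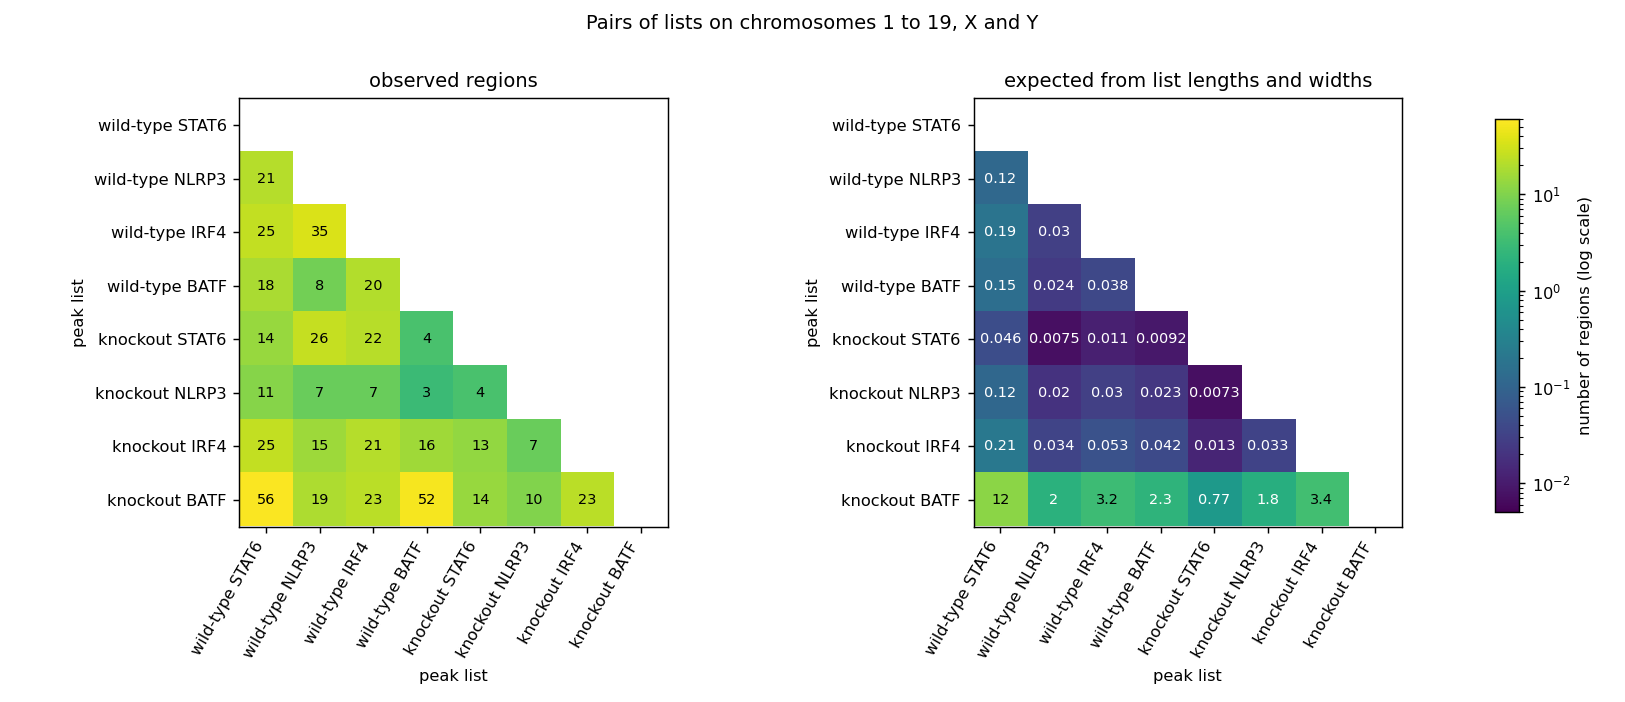
Left, the number of shared regions on chromosomes 1 to 19, X and Y in which each pair of lists met; right, the number that list lengths and widths give by formula, with colours on 1 log scale for both. Observed counts range from 3 to 56, while formula counts exceed 1 only in the knockout BATF row.

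Pairs were also grouped by whether they shared an antibody, a genotype or neither. Without knockout BATF, the 3 pairs of the same antibody in both genotypes met 42 times against 0.119, a ratio of 353. The 9 pairs that differed in antibody and in genotype met 129 times against 0.486, a ratio of 266. The 6 wild-type pairs met 127 times against 0.546, and the 3 knockout pairs met 24 times against 0.0535. The ratios of the last classes were 232 and 448. Medians over the pairs of each class, in the same order, were 357, 383, 252 and 548. By median the same-antibody class was thus not above the class that differed in both. No class was tested against another.

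BATF was the antibody with the most regions, 187 of 284 in either genotype. The 55 regions with BATF in both genotypes were the most for any antibody. The knockout BATF list, with 60735 control-free peaks, was also by far the longest. Of the 55 regions, 52 were on the assembled chromosomes, where the ratio to the formula count was 23.0. The same ratio was 301 for STAT6, 357 for NLRP3 and 396 for IRF4, on formula counts of 0.0530 or less. Wild-type BATF scores in the 52 regions ran from 54.8 over a median of 92.3 to 671, and 25 were at least 100. The knockout BATF scores ran from 56.7 over a median of 56.7 to 115. Among all 55 regions 31 knockout BATF peaks had exactly 56.67, the commonest score of that list. In these regions the wild-type scores spread widely and most knockout scores were at 1 value. In all 151 regions with knockout BATF, 106 (70.2%) had that score, compared with 88.1% of knockout BATF peaks found in no other list.

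The BATF region with the highest score in the knockout list lay at chromosome 5 positions 131995572 to 131995687. The wild-type BATF peak scored 500.3, the knockout BATF peak 115, and no further list was present. A region of the same make-up on chromosome 10, from 83417188 to 83417405, had BATF scores of 127 (wild-type) and 97.8 (knockout). These 2 regions hold 1 factor only, in both genotypes.

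STAT6 lists entered 162 regions, 129 through wild-type and 57 through knockout STAT6, and met each other in 24. On the assembled chromosomes 42 of the 104 wild-type STAT6 regions held knockout BATF and no further list. In the 56 meetings of wild-type STAT6 with knockout BATF, STAT6 scored between 50.8 and 164 with a median of 64.9, and 7 of 56 were at least 100. Knockout BATF did not exceed 90.4 there. Of these 56 pairs of peaks 73.2% overlapped by at least 50% of the shorter peak. For wild-type BATF with knockout BATF the share was 92.3% of 52.

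The 2 regions of the commonest combination with the highest lowest score had these values. At chromosome 13 positions 72463660 to 72463868 wild-type STAT6 scored 70.1 and knockout BATF 67.0. At chromosome 6 positions 65195581 to 65195745 the scores were 60.5 and 67.0. Among regions with STAT6 in both genotypes, the one on chromosome 9 from 95326321 to 95326449 had STAT6 scores of 159 (wild-type) and 129 (knockout), beside wild-type NLRP3 at 103 and knockout IRF4 at 74.9.

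The knockout STAT6 list was the one with the largest part in shared regions. Of its 169 control-free peaks 58 lay in a shared region, which is 34.3% (27.2 to 42). On the assembled chromosomes it met wild-type NLRP3 in 26 regions, equal to 17.7% of its 147 peaks there, and wild-type IRF4 in 22, equal to 14.97%. It met wild-type STAT6 in 14, equal to 9.52%, knockout BATF in 14 and knockout IRF4 in 13. It met wild-type BATF in 4. The wild-type NLRP3, IRF4, BATF and STAT6 lists held 375, 591, 602 and 2851 peaks there, and the smallest of these lists met knockout STAT6 most often.

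IRF4 entered 144 regions, 97 through wild-type and 82 through knockout IRF4, and 35 regions had IRF4 in both genotypes. Of these, 21 were on the assembled chromosomes. Wild-type IRF4 scored between 55.96 and 194 there with a median of 94.6, and knockout IRF4 between 51.9 and 160.3 with a median of 103. A region on chromosome 13, from 58869753 to 58869865, had IRF4 scores of 194 (wild-type) and 149 (knockout) and BATF scores of 284 and 56.7. This region held IRF4 and BATF of both genotypes and no other list, and the 4 peaks lay within 113 bp.

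Wild-type IRF4 and BATF, the known partners, met in 27 regions, 20 of them on the assembled chromosomes, where the formula gave 0.0379. IRF4 scores ran from 53.1 to 194 with a median of 83.4, and BATF scores from 54.2 to 671 with a median of 82.5. In 5 of the 20 both scores were at least 100. Wild-type STAT6 joined in 8 of the 20 and wild-type NLRP3 in 6. Knockout BATF was also present in 9 and knockout IRF4 in 8, and 13 had a peak in some knockout list (65%, 40.8 to 84.6). The knockout pair of IRF4 and BATF met in 23 regions against 3.45, and 5 regions held the pair in both genotypes. The 20 wild-type and 23 knockout regions rest on BATF lists of 602 and 60146 peaks.

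NLRP3 entered 113 regions, 93 through the wild-type list and 33 through the antibody used on NLRP3-deficient cells, and 13 regions had both. The antibody thus gave peaks in shared regions in cells labelled as lacking its target, and on the assembled chromosomes these were 21 regions against 66. In the wild-type list 23.2% of control-free peaks (19.2 to 27.6) lay in a shared region, and in the knockout list 6.81% (4.76 to 9.39). Each interval covers the counting of peaks in 1 library, so this gap could not be set against replicate error. The wild-type share was also the larger for IRF4 (16% against 10.4%) and BATF (14.6% against 0.249%). For STAT6 it was the smaller, 4.45% against 34.3%.

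Of the 66 wild-type NLRP3 regions on the assembled chromosomes, 46 held a wild-type STAT6, IRF4 or BATF peak. A knockout list was also present in 27 of these 46, and 19 held wild-type lists only. The remaining 20 regions paired wild-type NLRP3 with knockout lists alone. In all 44 of the 66 held a knockout factor peak. Among 21 regions of the knockout NLRP3 list, 12 held a knockout factor and 15 a wild-type factor. By the rule every region holds at least 2 lists. Some other list is thus certain beside NLRP3, and the counts describe chosen regions only. Of all control-free NLRP3 peaks on the assembled chromosomes, 18.1% of 375 wild-type and 4.47% of 470 knockout peaks lay in shared regions.

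IRF4 was the wild-type factor most often found with wild-type NLRP3, in 35 assembled regions against 21 for STAT6 and 8 for BATF. The 35 regions equal 9.33% of the NLRP3 and 5.92% of the IRF4 control-free peaks. NLRP3 scored between 51.6 and 155 there with a median of 81.2, and IRF4 between 52.5 and 172 with a median of 88.9. In 8 of the 35 both scores were at least 100. In each of the 35 pairs the peaks overlapped by at least 50% of the shorter one. Of the same 35 regions 21 had a peak in a knockout list (60%, 42.1 to 76.1), most often knockout STAT6 (15), then knockout IRF4 (10), knockout BATF (5) and knockout NLRP3 (3).

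The 2 best regions with wild-type NLRP3 and IRF4 and no other list lay on chromosomes 2 and 18. The first, from 5300182 to 5300399, had NLRP3 at 127 and IRF4 at 133. In the other, from 68851719 to 68851902, the scores were 92.9 and 100.01. The highest wild-type NLRP3 score in an assembled shared region was 155 at chromosome 17 positions 71312978 to 71313152, where IRF4 scored 168 and knockout STAT6 67.6. Knockout STAT6 was a partner of wild-type NLRP3 in 26 assembled regions, second to wild-type IRF4, with NLRP3 scores up to 155.

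Regions were also sorted by genotype. Of the 284 regions 219 (77.1%, 71.8 to 81.9) held wild-type and knockout peaks, 45 held wild-type peaks only and 20 knockout peaks only. Pairs of lists across genotypes carried 75.5% of the products of list lengths and 61.8% of the meetings on the assembled chromosomes, and nothing is read from the 77.1% beyond the count. Without the knockout BATF list 66.3% of 169 regions held both genotypes. The same antibody in both genotypes was found in 104 regions (36.6%, 31.0 to 42.5), and in 44 of them no other antibody was present. BATF was that antibody in 37 of the 44. Pairs of the same antibody carried 10.3% of the products of list lengths and 18.1% of the meetings on the assembled chromosomes. On the assembled chromosomes the 38 wild-type regions were led by NLRP3 with IRF4 (9 regions), STAT6 with BATF (8) and IRF4 with BATF (6). The 16 knockout regions were led by IRF4 with BATF (7), and 15 of the 16 contained knockout BATF.

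The part played by each list changed with the number of lists in a region. On the assembled chromosomes knockout BATF was in 112 of 180 regions with exactly 2 lists (62.2%) and in 18 of 31 regions with at least 4 (58.1%). Wild-type IRF4 was in 40 of the 180 (22.2%) and in 24 of the 31 (77.4%). Knockout IRF4 rose in the same way from 23 of 180 (12.8%) to 20 of 31 (64.5%), and knockout STAT6 from 17 (9.44%) to 16 of 31 (51.6%). A region with more lists holds any list more often, so these shares rise for most lists by construction, and the IRF4 lists were the most frequent together with wild-type STAT6 at 20 of 31.

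Scores of at least 100 made up a larger share of peaks in shared regions than of other control-free peaks. Pooled over lists, 145 of 739 peaks in shared regions (19.6%) scored at least 100, against 140 of 66003 peaks found in 1 list (0.212%). The share over all control-free peaks was 0.427%. Without the knockout BATF peaks the shares were 24.3% of 588 and 2.58% of 5419. The same peak calls chose the regions, so this is a description.

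The share with such a score was the larger in each list, while the medians were not. The median score was 60.94 in shared and in single-list peaks of knockout NLRP3, and 56.67 in both for knockout BATF. In the other 6 lists the shared median was higher, from 68.8 against 62.5 in knockout STAT6 to 86.03 against 65.56 in knockout IRF4. In wild-type IRF4 29 of 98 shared peaks scored at least 100 (29.6%), against 6.22% of all its control-free peaks, and in knockout IRF4 29 of 83 (34.9%), against 8.9%. In wild-type BATF they were 36 of 91 (39.6%), against 13.5%. In wild-type NLRP3 they were 16 of 95 (16.8%), against 4.89%, and in knockout NLRP3 3 of 34 (8.82%), against 0.802%. In wild-type STAT6 they were 21 of 129 (16.3%), against 1.9%, and in knockout STAT6 9 of 58 (15.5%), against 6.51%. Knockout BATF had only 2 control-free peaks with such a score, 0.00329% of its list, and both lay in shared regions.

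The share of a list's peaks that lay in shared regions was highest, in each list, for scores of at least 100. Over all scores 4.45% of control-free peaks of wild-type STAT6, 16% of IRF4 and 14.6% of BATF lay in shared regions. The values for knockout IRF4 and BATF were 10.4% and 0.249%. Among the highest peaks, scored 100 or more, 16 of 20 wild-type NLRP3 peaks (80%, 56.3 to 94.3), 29 of 38 wild-type IRF4 peaks (76.3%, 59.8 to 88.6) and 9 of 11 knockout STAT6 peaks (81.8%, 48.2 to 97.7) lay in shared regions. Fewer did among wild-type BATF (42.9%, 32.1 to 54.1), knockout IRF4 (40.8%, 29.3 to 53.2) and wild-type STAT6 (38.2%, 25.4 to 52.3). These intervals cover the counting of peaks within a list only. Scores are not comparable between lists, and each share also depends on which other lists were there to meet. The order of the lists was therefore not tested.

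**Figure D3:**
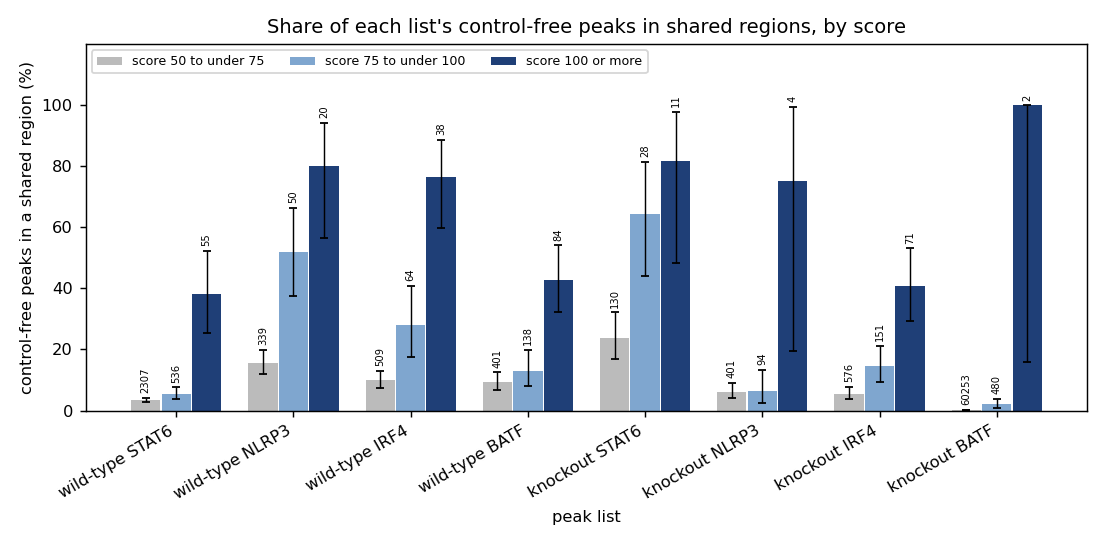
Percent of each list's control-free peaks that lie in a shared region, for 3 classes of score; bars show the share, whiskers the exact 95% interval, and the small numbers the control-free peaks in the class. The share in the class of 100 or more runs from 38.2% in wild-type STAT6 to 81.8% in knockout STAT6, with 2 of 2 in knockout BATF. Scores are not comparable between lists.

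Some high peaks outside the shared regions mark the other side of the threshold. The top wild-type BATF peak that met no list, on chromosome 7 from 150554282 to 150554372, scored 262. The corresponding wild-type IRF4 peak, at chromosome 1 positions 102076695 to 102076793, scored 142, and that of wild-type STAT6, on chromosome 15 from 103436925 to 103436996, scored 126. For wild-type NLRP3 the highest control-free peak of the whole list was unshared. It lay on mitochondrial sequence (M) from 10816 to 15486 and scored 191.9, above the 155 of the highest shared peak. On the assembled chromosomes the top unshared wild-type NLRP3 peak had a score of 106, on chromosome 4 from 70304330 to 70304401. A further 43 pairs of neighbouring peaks from different lists lay at most 100 bp apart without touching, and 5 of these pairs were at most 10 bp apart.

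Shared regions were narrow. Their median width was 157 bp, with quartiles of 113 and 209 bp, and the range ran from 65 to 5841 bp. Within lists the median width of shared against unshared peaks was 124 against 106 bp in wild-type STAT6, 168 against 149 bp in NLRP3 and 111 against 92 bp in BATF. In wild-type IRF4 it was 146.5 against 152 bp, in knockout IRF4 143 against 129 bp, in knockout STAT6 150 against 143 bp and in knockout NLRP3 98.5 against 101 bp. Both medians were 58 bp in knockout BATF. Over all scores, shared peaks had the larger median in 5 lists and the smaller one in wild-type IRF4 and knockout NLRP3. Within the 3 classes of score the order differed. Shared knockout NLRP3 peaks were the wider in each class (122 against 112.5, 73 against 70.5 and 71 against 64 bp). Those of wild-type IRF4 were the narrower in the lowest class only (149 against 156 bp). In knockout STAT6 they were the narrower in the highest class (103 against 134 bp, 11 peaks).

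The peaks of a region mostly lay on top of each other. Over 743 pairs of lists within a region, using the highest peak of each list, the centres lay a median of 24 bp apart (quartiles 9 and 55.3 bp), and 91.3% overlapped by at least 50% of the shorter peak. In 393 pairs (52.9%) the shorter peak lay wholly inside the other. The coordinates were identical in 6 pairs. Where the highest peaks overlapped, the smallest overlap was 1 bp in pairs with knockout BATF and 12 bp in pairs without it. In 22 pairs, 14 of them without knockout BATF, these peaks did not overlap and were joined only through other peaks. Pairs with knockout BATF overlapped by at least 50% in 83.0% of cases and pairs without it in 94.8%.

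**Figure D4:**
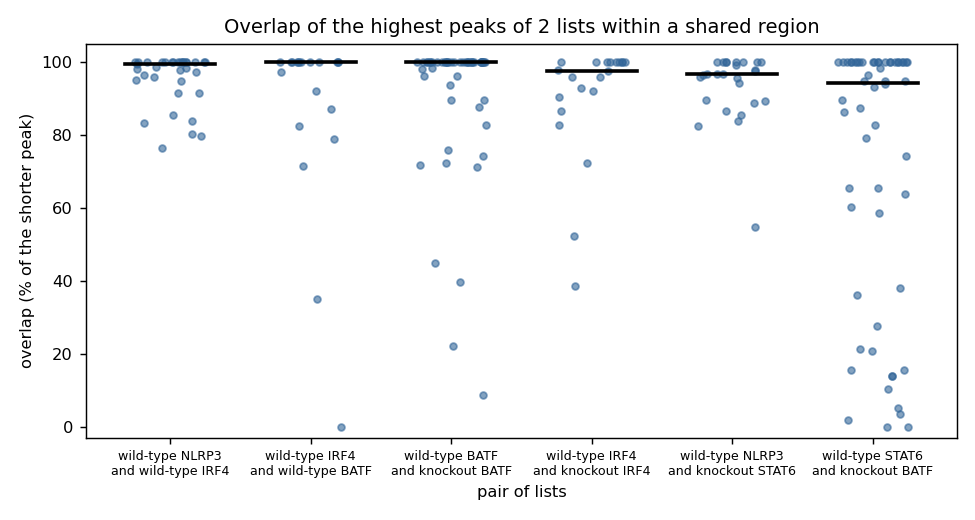
Overlap of the highest peaks of 2 lists as a percent of the shorter peak, for 6 pairs of lists on chromosomes 1 to 19, X and Y; each point is a shared region and the bar is the median. Wild-type NLRP3 with wild-type IRF4 stays above 50% in all 35 regions, while wild-type STAT6 with knockout BATF does so in 73.2% of 56.

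The 10 assembled regions found in the most lists are labelled A to J. Region A, at chromosome 13 positions 74667246 to 74668159, held all 8 lists in 914 bp. Wild-type STAT6 scored 88.1, NLRP3 82.5, IRF4 63.3 and BATF 72.8, and knockout STAT6 59.95, NLRP3 68.7, IRF4 153 and BATF 69.3. Its peaks formed 2 blocks bridged by 1 knockout IRF4 peak of 863 bp. Both BATF peaks and the knockout NLRP3 peak lay in the first block and ended by position 74667588, and both STAT6 peaks and the wild-type IRF4 peak began at position 74667694 or later. Wild-type NLRP3 had a peak in each block. A control peak lay 84 bp away, so this region is free of controls only by the letter of the rule.

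Regions B to D each held 6 lists. Region B, at chromosome 18 positions 82390362 to 82390792, held all 4 wild-type lists, STAT6 at 82.6, NLRP3 at 76.5, IRF4 at 135 and BATF at 73.5, and 2 knockout lists, STAT6 at 153 and IRF4 at 86.95. Region C, at chromosome 17 positions 63086858 to 63086998, had wild-type STAT6 at 141, IRF4 at 130.3 and BATF at 79.7, and the knockout peaks of these antibodies scored 63.8, 113 and 56.7. It held the 3 transcription factors in both genotypes and NLRP3 in neither. Region D, at chromosome 3 positions 152364545 to 152364740, had wild-type STAT6 at 50.8, NLRP3 at 90.6 and IRF4 at 74.0, knockout peaks of these at 98.2, 52.6 and 98.5, and no BATF peak.

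Regions E to I held 5 lists. Region E, at chromosome 5 positions 114623079 to 114623200, had the highest BATF score of all shared regions, 671 (wild-type) and 90.4 (knockout), beside wild-type NLRP3 and IRF4 at 118.4 and 126 and knockout IRF4 at 131. Region F, at chromosome 9 positions 23522081 to 23522346, had wild-type STAT6 at 228, IRF4 at 134 and BATF at 111, and knockout NLRP3 at 234 and IRF4 at 152. The highest scores of the wild-type STAT6 and of the knockout NLRP3 lists among shared regions thus fell on the same region, the first from wild-type cells and the other from cells labelled as lacking NLRP3.

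Region G, at chromosome 8 positions 73956978 to 73957078, held all 4 knockout lists, with STAT6 at 100.7, NLRP3 at 79.7, IRF4 at 190.1 and BATF at 56.7 there and STAT6 at 112 in wild-type cells. Region H, at chromosome X positions 37544310 to 37544387, was 78 bp wide and had NLRP3 in both genotypes, at 138 and 79.7, with STAT6 at 100.01 from wild-type cells and IRF4 at 104.1 and BATF at 56.7 from knockout cells. Region I, at chromosome 19 positions 45724522 to 45724729, had wild-type NLRP3 at 154, IRF4 at 81.3 and STAT6 at 76.8, and knockout STAT6 at 97.1 and IRF4 at 51.9. Region J, at chromosome 9 positions 88448046 to 88448195, held 4 lists, wild-type BATF at 481, IRF4 at 138 and NLRP3 at 82.9 and knockout BATF at 90.4. In the 10 regions IRF4 of at least 1 genotype was present each time, and knockout lists were present each time. The regions were picked for holding the most lists. A knockout list is therefore certain wherever more than 4 lists are present, and an IRF4 list is likely, so nothing is read from either.

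**Figure D5:**
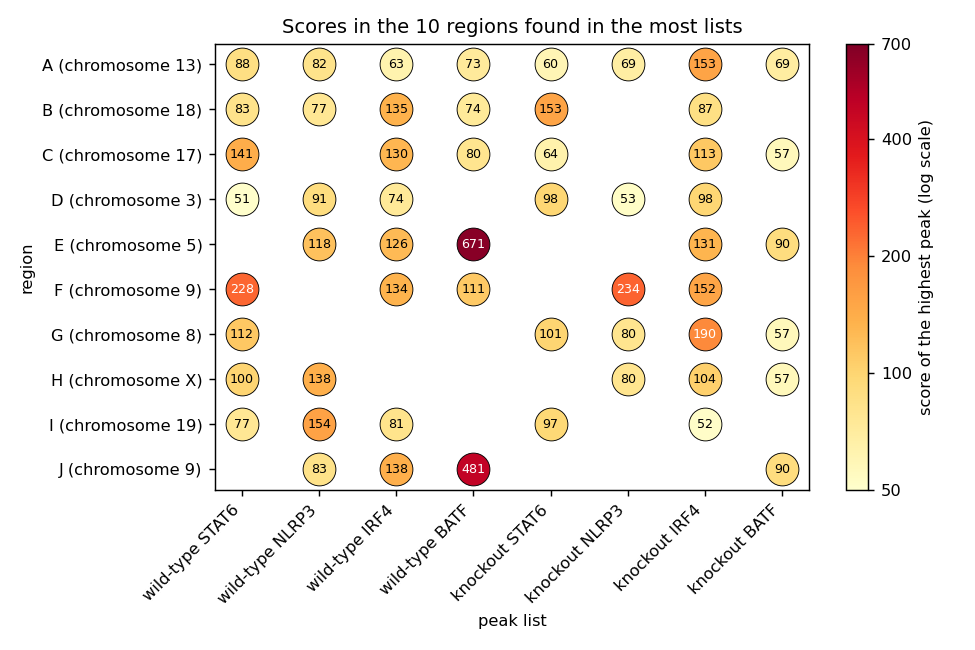
Score of the highest peak of each list (circles, colour on a log scale) in the 10 regions of chromosomes 1 to 19, X and Y found in the most lists; an empty place means no peak. Regions E and J stand out by wild-type BATF scores of 671 and 481, and an IRF4 peak of 1 or both genotypes is present in each row. The rows were picked for their number of lists, which makes an IRF4 peak likely in any of them.

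Other regions were named for the highest lowest score in their combination, with ties settled by position. At chromosome 12 positions 36862680 to 36862762 wild-type STAT6 scored 89.97 and BATF 135, and at chromosome 2 positions 41751708 to 41751793 they scored 88.3 and 99.2. At chromosome X positions 134665399 to 134665463, the narrowest region at 65 bp, knockout IRF4 scored 119 and BATF 67.0, and at chromosome 1 positions 6661058 to 6661175 they scored 68.5 and 56.7. The latter is 1 of 6 regions of that combination that tie at a lowest score of 56.67. Wild-type IRF4 met knockout BATF at chromosome 1 positions 189881939 to 189882109 (65.9 and 56.7) and at chromosome 13 positions 63516394 to 63516537 (70.7 and 56.7), which are 2 of 8 regions that tie in the same way. The widest region was also the one with the highest wild-type IRF4 score. At chromosome 17 positions 39979917 to 39985757 a single IRF4 peak of 5841 bp scored 432, and a STAT6 peak of 1886 bp inside it scored 59.4.

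Unplaced and random sequence held 45 of the 284 regions (15.8%, 11.8 to 20.6), 42 of them on Un_random, 2 on Y_random and 1 on 9_random. Of all 66742 control-free peaks, 60735 of them from knockout BATF, 1.21% lay on such sequence, 2 mitochondrial peaks included. Counted as peaks, it was 20.7% of the 739 in shared regions and 0.991% of the 66003 in 1 list. Lists other than knockout BATF gave 172 of the 235 control-free peaks on Un_random and 31 of the 504 on Y_random, so their own share was above 1.21%. The regions on such sequence were wider, with a median of 300 bp in place of 143 bp. Of these, 17 of 45 (37.8%) were in at least 4 lists, against 31 of 239 (13.0%) elsewhere. Knockout BATF was in only 10 of the 45, against 141 of 239. The second region in all 8 lists lay here, at Un_random positions 3922933 to 3923141, with scores of 127, 107, 169.7 and 102 for wild-type STAT6, NLRP3, IRF4 and BATF and of 50.5, 53.7, 208 and 57.3 for the knockout lists, and with a control peak 110 bp away.

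Control peaks lay near a part of the regions. Within 1000 bp of a control peak were 35 of the 284 regions (12.3%, 8.74 to 16.7) and 2.59% of all control-free peaks. On the assembled chromosomes these were 10 of 239 regions (4.18%, 2.02 to 7.56), against 2.43% of peaks in 1 list, or 3.125% without knockout BATF peaks. On unplaced sequence they were 25 of 45 regions (55.6%, 40.0 to 70.4), against 4.43% of peaks in 1 list. How far background signal enters the regions was not tested.

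The control filter set aside a further group of regions. A total of 229 regions held a control peak and peaks of at least 2 ChIP lists. Of these 186 (81.2%) were in at least 4 ChIP lists and 75 (32.8%) in all 8, against 48 (16.9%) and 2 of the 284 control-free regions. Of their ChIP peaks 61.9% scored at least 100, and 82.5% of the regions had the same antibody in both genotypes, against 36.6% of the control-free regions. The share with an antibody in both genotypes rises by construction with the number of lists in a region.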

How the data were processed

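The authors deposited 1 peak list per library, made by MACS (Galaxy) per the file headers, from reads aligned with Bowtie2 per the submitters' processing notes. For the caller, version, cut-off and control were not stated. The score deposited by the authors was taken to be 10 times minus log10 p and was not normalized between libraries. The notes name the build mm8, but peaks reach 152397321 on chromosome 7, past the known end of that chromosome in mm8 and within that of mm9. Coordinates are printed as deposited, counted from 1. No genome or annotation of this build was used, so genes and sequences are not analysed here.

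Lists were filtered and merged with Python 3.11.15, numpy 2.4.6, pandas 2.3.3 and scipy 1.17.1. The formula count for a pair is the product of both peak numbers and the summed mean widths less 1 bp, divided by the span of the chromosome, added over chromosomes. The code was tested on simulated lists. No p-value was computed. Regions named were the 10 in the most lists (ties by the sum of scores), the one with the highest score of each list, and the 2 with the highest lowest score in each of the 6 commonest combinations and for each antibody in both genotypes, on chromosomes 1 to 19, X and Y. Members and lists were chosen with earlier results of these data known.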

Additional observations from a re-analysis of the deposited data

How the results depend on the processing

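Each result was recomputed under 8 kinds of alternative. No paired analysis was possible because each group held 1 library. With a minimum score of 80 in all lists, controls included, there were 122 shared regions, 69.7% with both genotypes. Of their peaks 64.4% scored at least 100, against 16.3% of peaks in 1 list, and both shares rise because lower scores are dropped. With a minimum of 100 there were 86 regions, 66.3% with both genotypes and 45.3% with 1 antibody in both, and 42 in place of 69 regions had wild-type NLRP3 with a wild-type factor. Such a minimum also removes control peaks. With controls of the same genotype only, 65.6% held both genotypes. Merging up to 1000 bp gave 586 regions, 21.7% with 1 antibody in both genotypes. Of their peaks 10.97% scored at least 100, against 0.205% of peaks in 1 list. Without each list in turn the regions numbered 169 to 271, those with both genotypes 66.3% to 81.3%, with 1 antibody in both 24.8% to 43.4%, NLRP3 with a factor 46 to 70, and peaks of at least 100 17.5% to 26.6%. Of peaks in 1 list 0.1465% to 2.84% scored at least 100, with the highest share without knockout BATF. The lowest number of regions came without knockout BATF. Without knockout BATF and unplaced sequence, an alternative chosen after seeing the data, there were 127 regions, 63.8% with both genotypes and 27.6% with 1 antibody in both. There 32.1% of peaks scored at least 100, against 2.77% of peaks in 1 list. The other values stayed within 1.5 times the count or within the interval of the share. The share of peaks of at least 100 has no meaning at a minimum of 100, nor NLRP3 with a factor without that list.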
